A study of Mus musculus with 161 samples.

Results

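Genes raised by both M1 and M2 polarization form a small group of 67 of the 8307 genes measured by bulk RNA-seq in mouse bone marrow-derived macrophages (BMDMs). A gene was a member where its mean log10(FPKM + 1) at 24 h was at least 0.25 higher, a 1.78-fold difference, in M1 and in M2 cells than in 24 h M0 cells and in 0 h M0 cells. FPKM scales fragments to transcript length and to the mapped fragments of the library. By the same margin 1205 genes were raised in M1 and 301 in M2, and 67 were in both sets. Members were thus chosen by these 24 h and 0 h values, which are given as a description with no test. All tests below use libraries of other times, ATAC-seq or, as values with no test, single-cell RNA-seq.

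M1 cells were treated with 100 ng/mL LPS, a bacterial cell wall component, together with 25 ng/mL IFN-γ. M2 cells received 25 ng/mL IL-4, and M0 cells stayed in the base medium. All BMDMs came from C57BL/6J mice and were grown with macrophage colony stimulating factor (MCSF), which every group contained, before treatment on day 7. At 24 h the cells were washed and either kept in the same cytokines, returned to base medium (M1 → M0, M2 → M0), or given the opposite cytokines (M1 → M2, M2 → M1). Times below count from the first stimulus, so 48 h and 96 h M1 → M0 cells had spent 24 h and 72 h without cytokine. There were 3 bulk libraries per condition, except 2 for 48 h M0 and 4 for 96 h M0 and for 28 h M2 → M1. The labels call these biological replicates without naming separate animals or cultures, so p-values measure only the spread between these libraries.

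LPS signals through Toll-like receptor 4 to NF-κB and to interferon genes, and IFN-γ and IL-4 each signal through receptors that bind JAK kinases. Suppressor of cytokine signalling proteins restrain both cytokine pathways. M1 cells are known for microbicidal and inflammatory products and antigen presentation. M2 cells are known for arginine breakdown, for tissue repair and for chemokines that attract eosinophils and T helper cells.

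Core macrophage genes were present in each bulk library, with 16 of 17 listed genes measured and a summed level of 4813 to 17503 FPKM. Of the listed markers of other cells, none of the T and NK cell, mast cell or erythroid genes were among the 8307, while 1 of 7 dendritic cell, 1 of 7 B cell, 2 of 8 fibroblast, 3 of 5 megakaryocyte, 5 of 7 osteoclast and 11 of 11 neutrophil genes were. No member belongs to any of these lists. The summed neutrophil markers were 18.0 to 142 FPKM in 96 h M1, 3.24 to 5.75 FPKM in 96 h M2 and 9.16 to 19.4 FPKM in 96 h M0. Osteoclast markers summed to 19.9 to 27.5 FPKM in 96 h M1, 364 to 464 FPKM in 96 h M2 and 75.1 to 104 FPKM in 96 h M0. For megakaryocyte markers the sums were 22.8 to 52.4 FPKM in 96 h M1, 148 to 209 FPKM in 96 h M2 and 371 to 435 FPKM in 96 h M0. Core macrophage genes moved too, with 5382 to 12000 FPKM in 96 h M1, 7753 to 8327 FPKM in 96 h M2 and 13080 to 14980 FPKM in 96 h M0, and in 48 h M2 they summed to 4813 to 7438 FPKM against 9473 to 10710 FPKM in 48 h M0. The part of these markers in the results was not tested. Replicate 1 stood apart. On the first component of the library deviations within conditions, which took 32.6% of the variance, replicate 1 was the highest in 45 of 48 conditions. The members lowest in replicate 1 were Ccl8, Ccl12 and Timp1, with a mean log2 difference from the other replicates of -1.87, -1.27 and -0.93, and the highest was F10, with 0.89. Of 826 calls for members, 171 were lost without replicate 2 and 175 without replicate 3, and only some of these are named below.

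At 24 h the M1 mean was the higher one in 51 members and the M2 mean in 16. The members closest to the threshold on the inside were Ccl12 (margin 0.261 on the log10 scale), Plekhg1 (0.257) and G530011O06Rik (0.256), and the genes closest on the outside were Fgd6 (0.249), Cd274 (0.247) and Mettl7a1 (0.245). With a threshold of 0.2 there were 97 members and with 0.3 there were 47. Of lists of macrophage functions, 30 members belonged to at least 1. The lists of glycolysis, actin cytoskeleton, ribosome biogenesis, translation, amino acid stress and chaperones held no member.

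**Figure D1:**
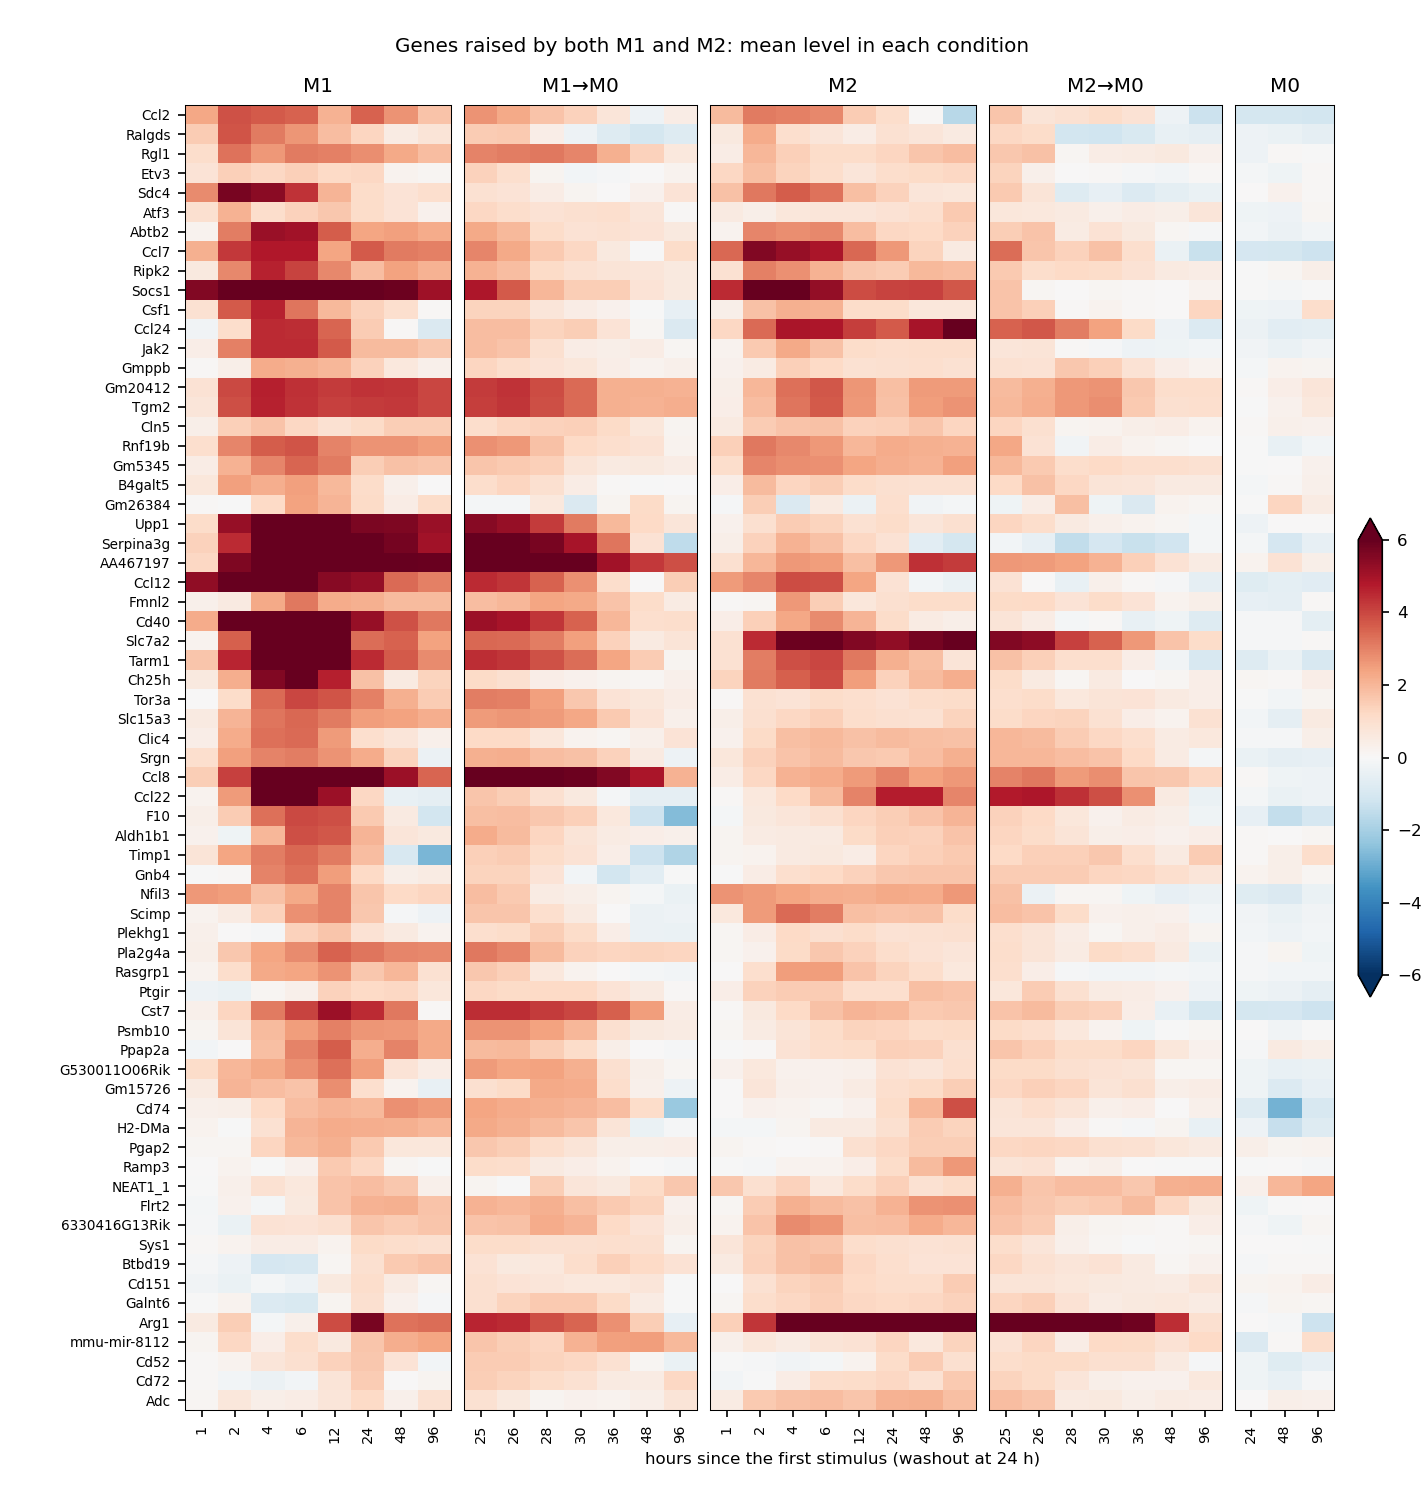
Mean log2(FPKM + 1) of the 67 members minus their 0 h M0 mean (colour, limited at -6 and 6), by hours since the first stimulus, in M1, M1 → M0, M2, M2 → M0 and M0 cells, with members ordered by the time of their M1 peak up to 24 h. Most rows are red in the M1 and M2 panels and pale in the last columns of the washout panels. Arg1 is an exception in timing, with a mean of 149 FPKM at 2 h in M2 and 114 FPKM at 12 h in M1.

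In cells kept in their cytokines, most members were still raised at 48 h and 96 h, times the selection did not use. Against 48 h M0, 50 of the 67 members were higher in 48 h M1 (median log2 difference 1.85; 33.1% of all genes were called higher), and 56 were higher in 48 h M2 (median 1.46; 12.7% of all genes). Against 96 h M0, 45 were higher in 96 h M1 (median 1.31; 30% of all genes), and 57 in 96 h M2 (median 1.46; 20.4% of all genes). Calls here and below are from limma on log2(FPKM + 1) over all 145 libraries, two-sided, with a Benjamini-Hochberg adjusted p below 0.05 over 8307 genes. The value after ± on a log2 difference is the standard error from this fit, not an SD between libraries. In all 4 of these comparisons 35 members were higher, against 3.12% of all genes, and in both 96 h comparisons 39 members were higher, against 6.52% of all genes. The M1 and M2 comparisons share their M0 libraries, and log2(FPKM + 1) understates the change of low genes. In 96 h M1, 3 members were lower than in 96 h M0 (22.3% of all genes were lower), and these were Timp1, Csf1 and Cd151. NEAT1_1, a form of a nuclear long noncoding RNA, and Gm26384 were not called in any of the 4 comparisons.

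**Figure D2:**
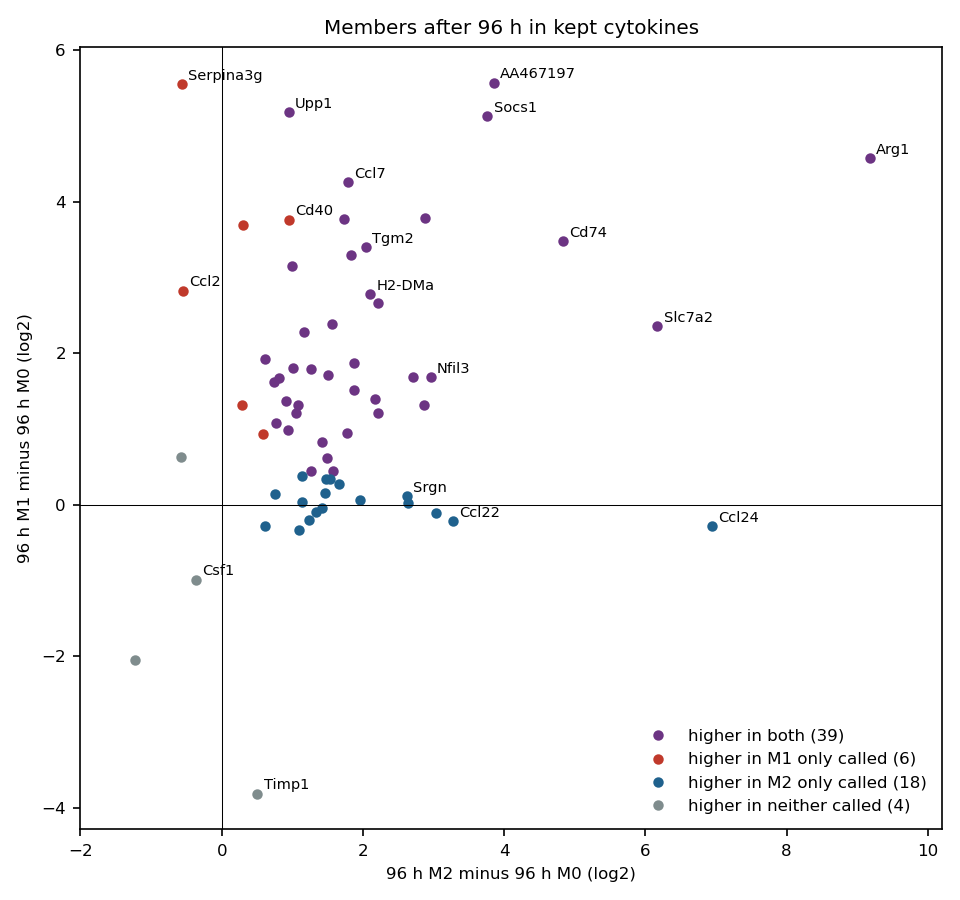
Difference of each member from 96 h M0 in 96 h M2 (x axis) and in 96 h M1 (y axis), both on the log2(FPKM + 1) scale, coloured by which of these comparisons called it higher. The 39 members called higher in both lie at the upper right, Arg1 lies farthest right, and Timp1 lies lowest.

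Arginine handling held the member with the largest M2 difference at 96 h. Arg1, arginase 1, which splits arginine into ornithine and urea, had 75.1, 44.5 and 97.4 FPKM in 48 h M1 and 2827, 2685 and 3227 FPKM in 48 h M2, against 7.31 and 4.97 FPKM in 48 h M0. At 96 h Arg1 had 38.2, 30.5 and 343 FPKM in M1 and 1989.8, 1683 and 1799 FPKM in M2, against 0.758, 0.591, 7.16 and 3.33 FPKM in M0. All M1 and M2 libraries lay above the M0 libraries of their time, and M1 replicate 3 was far above the other M1 libraries at 96 h. The Arg1 log2 difference at 96 h was 4.58 ± 0.50, limma adjusted p = 1.38e-13 in M1 and 9.17 ± 0.50, limma adjusted p = 3.37e-31 in M2. The arms differed in timing. Mean Arg1 was 1095 FPKM in 4 h M2, while in M1 it was 6.25 FPKM at 4 h, 114 FPKM at 12 h and 390.0 FPKM at 24 h. Between 4 h and 12 h Arg1 rose in M1 (log2 difference 4.04 ± 0.54, limma adjusted p = 2.12e-10).

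Slc7a2, the cationic amino acid transporter that brings arginine into macrophages, was higher in M1 early and higher in M2 late. Its mean was 369 FPKM in 12 h M1 and 139 FPKM in 12 h M2 (log2 difference 1.38 ± 0.36, limma adjusted p = 0.000447). At 96 h Slc7a2 had 27.3, 13.9 and 8.51 FPKM in M1 against 266, 213 and 194 FPKM in M2 (log2 difference -3.81 ± 0.36, limma adjusted p = 9.08e-17). Both lay above the 1.95 to 2.30 FPKM of Slc7a2 in 96 h M0. Of the 27 measured genes of arginine, polyamines and amino acid transport, 10 were higher and 7 lower in 96 h M1 than in 96 h M0 (30% and 22.3% of all genes). In 96 h M2, 7 were higher and 3 lower (20.4% and 14.9% of all genes).

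Socs1, the cytokine-induced inhibitor of JAK kinases, was the member whose smallest log2 difference over the 4 kept comparisons was the highest, at 3.76 ± 0.36. It had 89.1, 116 and 141 FPKM in 48 h M1 and 28.6, 42.1 and 30.2 FPKM in 48 h M2, against 1.30 and 0.460 FPKM in 48 h M0. In 96 h M1 Socs1 had 70.7, 65.7 and 64.1 FPKM and in 96 h M2 32.1, 26.7 and 19.0 FPKM, against 0.662, 0.741, 1.82 and 0.736 FPKM in 96 h M0. Each M1 and M2 library lay above each M0 library. The Socs1 log2 difference at 96 h was 5.13 ± 0.36, limma adjusted p = 2.32e-24 in M1 and 3.76 ± 0.36, limma adjusted p = 4.41e-16 in M2. Socs1 was also among the earliest members, at a mean of 103 FPKM in 1 h M1 and 57.4 FPKM in 1 h M2.

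Jak2, the kinase bound to the IFN-γ receptor and a target of SOCS1, had 36.2, 28.01 and 25.0 FPKM in 96 h M1 and 23.4, 19.1 and 18.1 FPKM in 96 h M2, against 8.36, 8.23, 7.51 and 7.00 FPKM in 96 h M0. It was higher in M1 (log2 difference 1.79 ± 0.24, limma adjusted p = 1.77e-10) and in M2 (1.27 ± 0.24, limma adjusted p = 5.99e-06), with no overlap with M0. Of the 34 measured genes of JAK-STAT signalling and its inhibitors, 15 were higher and 7 lower in 96 h M1 than in 96 h M0 (30% and 22.3% of all genes). In 96 h M2, 10 were higher and 6 lower (20.4% and 14.9% of all genes).

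The promoters of Socs1, Psmb10 and Serpina3g are shown as examples with sequence matches and an overlapping ATAC-seq site that rose in M1, with values given further on. Promoters of other members whose sites rose are not shown, so no link between matches and accessibility can be read from these promoters. They are RefSeq promoters on GRCm38.p6, 250 bases before to 50 after the start, read 5′ to 3′ along the gene. Capitals mark matches, searched on both strands, to an interferon-stimulated response element (ISRE; GAAA, any 2 bases, GAAA), a STAT element (TTC, any 3 bases, GAA), a STAT6 element (TTC, any 4 bases, GAA), an NF-κB element (GGG, any 2 bases, TTTCC), an AP-1 element (TGANTCA) or an E-box (CACGTG). The Socs1 promoter is chr16:10785487-10785786 on the minus strand, with overlapping ISRE matches from -83 to -68. That of Psmb10 is chr8:105938343-105938642 on the minus strand, with the E-box from -116 to -111 and the STAT6 element from -67 to -58. That of Serpina3g is chr12:104235897-104236196 on the plus strand, with the NF-κB element from -85 to -76 and the STAT element from -33 to -25.
Socs1: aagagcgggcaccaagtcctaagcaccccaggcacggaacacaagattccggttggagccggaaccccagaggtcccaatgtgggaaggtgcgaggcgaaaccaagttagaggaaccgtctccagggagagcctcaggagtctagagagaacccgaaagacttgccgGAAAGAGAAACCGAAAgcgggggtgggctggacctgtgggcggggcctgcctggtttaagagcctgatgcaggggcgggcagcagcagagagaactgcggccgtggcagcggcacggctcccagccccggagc
Psmb10: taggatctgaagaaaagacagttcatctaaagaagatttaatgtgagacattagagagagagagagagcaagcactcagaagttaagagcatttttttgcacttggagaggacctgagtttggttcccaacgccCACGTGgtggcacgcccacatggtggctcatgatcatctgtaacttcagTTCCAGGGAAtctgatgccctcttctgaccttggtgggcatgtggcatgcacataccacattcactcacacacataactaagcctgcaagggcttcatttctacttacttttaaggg
Serpina3g: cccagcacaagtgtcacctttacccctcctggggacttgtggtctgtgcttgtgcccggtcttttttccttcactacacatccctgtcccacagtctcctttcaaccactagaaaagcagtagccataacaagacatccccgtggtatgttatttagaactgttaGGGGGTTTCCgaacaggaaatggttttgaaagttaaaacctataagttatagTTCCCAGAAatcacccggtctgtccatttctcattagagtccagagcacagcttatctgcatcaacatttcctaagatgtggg

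RefSeq promoters were matched for 43 members, with 58 promoters. The NF-κB element was in 3 of them (5.17%, against 1.63% of all 32851 promoters) and the ISRE in 2 (3.45%, against 3.44%). The STAT element was in 2 (3.45%, against 8.3%) and the STAT6 element in 4 (6.9%, against 6.95%). The E-box was in 6 (10.3%, against 7.15%) and the AP-1 element in 5 (8.62%, against 7.81%). A match describes letters and is not a binding site, and promoters of the same gene can overlap.

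Among transcription factors, the members were Nfil3, a basic leucine zipper factor, Atf3, a stress-induced factor of the same class, and Etv3, of the ETS family. Nfil3 had 22.3, 10.1 and 12.2 FPKM in 96 h M1 and 43.9, 36.5 and 27.8 FPKM in 96 h M2, against 3.20, 3.15, 5.27 and 3.44 FPKM in 96 h M0. It was higher in both arms (1.68 ± 0.27 in M1 and 2.96 ± 0.27 in M2), and lower in M1 than in M2 (log2 difference -1.27 ± 0.29, limma adjusted p = 0.00012). Atf3 had 262, 267 and 178 FPKM in 96 h M1 and 518, 674 and 542 FPKM in 96 h M2, against 189, 208, 228 and 208 FPKM in 96 h M0. Atf3 was higher in 96 h M2 (1.46 ± 0.21, limma adjusted p = 5e-09), and in 96 h M1 it overlapped M0 and did not pass the test (0.16 ± 0.21). Etv3 followed the same pattern, with log2 differences of 1.14 ± 0.17, limma adjusted p = 3.23e-08, in 96 h M2 and 0.04 ± 0.17, not called, in 96 h M1.

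Chemokine members were Ccl2, Ccl7, Ccl8, Ccl12, Ccl22 and Ccl24, joined by the growth factor Csf1. The monocyte chemoattractant genes Ccl2, Ccl7, Ccl12 and Ccl8 lie on chromosome 11 between 82035571 and 82116799 (GENCODE vM21, mm10). Ccl7 had 124, 265 and 398 FPKM in 96 h M1 and 13.1, 58.1 and 92.1 FPKM in 96 h M2, against 10.4, 11.9, 10.8 and 12.6 FPKM in 96 h M0. Neither arm overlapped M0. The log2 difference of Ccl7 was 4.26 ± 0.48, limma adjusted p = 6.31e-13 in M1 and 1.78 ± 0.48, limma adjusted p = 0.0019 in M2. The M2 call of Ccl7 was lost without replicate 2 (1.57) and without replicate 3 (1.19).

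Ccl2 had 499.7, 356 and 469 FPKM in 96 h M1 and 13.1, 61.4 and 83.7 FPKM in 96 h M2, against 66.0, 65.7, 61.3 and 51.3 FPKM in 96 h M0. It was higher in M1 (log2 difference 2.83 ± 0.33, limma adjusted p = 2.29e-12), and in M2 it overlapped M0 and did not pass the test (-0.55 ± 0.33). Ccl12 showed the same order, with 11.7, 47.2 and 50.8 FPKM in 96 h M1 and 0.277, 3.88 and 3.48 FPKM in 96 h M2, against 0.858, 0.882, 2.31 and 2.17 FPKM in 96 h M0. Ccl8 had 3.39, 19.3 and 53.8 FPKM in 96 h M1 and 1.27, 15.9 and 18.6 FPKM in 96 h M2. The 96 h M0 libraries had 0, 0, 0.622 and 0.411 FPKM of Ccl8. For Ccl7, Ccl8 and Ccl12 replicate 1 was the lowest library in both 96 h arms, and Ccl8 lost its M1 call without replicate 3 (3.07) and its M2 call without replicate 2 (2.34) or 3 (2.46).

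Ccl22, a ligand of CCR4, and Ccl24, an eosinophil attractant that binds CCR3, were raised in M2 at 96 h and not called in M1. Ccl24 had 0.178, 0 and 0.0282 FPKM in 96 h M1 and 325, 131 and 92.8 FPKM in 96 h M2, against 0.407, 0.401, 0.190 and 0.203 FPKM in 96 h M0. It was higher in M2 (log2 difference 6.94 ± 0.43, limma adjusted p = 5.66e-27) and not called in M1 (-0.28 ± 0.43). Ccl22 had 0.354, 0.125 and 0 FPKM in 96 h M1 and 14.1, 12.3 and 9.68 FPKM in 96 h M2, against 0.463, 0.219, 0.311 and 0.356 FPKM in 96 h M0. The M1 rise of both was early, with the highest M1 mean at 4 h for Ccl24 and 6 h for Ccl22. Over the 62 measured cytokines, chemokines and receptors, 24 were higher and 12 lower in 96 h M1 (30% and 22.3% of all genes), and 17 were higher and 15 lower in 96 h M2 (20.4% and 14.9% of all genes), than in 96 h M0.

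Csf1 encodes the growth factor supplied in the medium. It had 11.7, 7.55 and 7.00 FPKM in 48 h M1, against 3.39 and 2.48 FPKM in 48 h M0 (log2 difference 1.29 ± 0.43, limma adjusted p = 0.00719). At 96 h Csf1 had 6.80, 4.56 and 1.903 FPKM in M1, against 5.85, 5.45, 19.9 and 9.59 FPKM in M0. It was lower there (-0.99 ± 0.36, limma adjusted p = 0.0152), but the groups overlapped and the call was lost without replicate 3 (-0.24). Timp1, a tissue inhibitor of metalloproteinases, had 0.695, 1.04 and 0.370 FPKM in 96 h M1 and 19.9, 39.2 and 43.7 FPKM in 96 h M2, against 11.4, 10.0, 59.3 and 36.5 FPKM in 96 h M0. All M1 libraries lay below all M0 libraries (-3.81 ± 0.54, limma adjusted p = 2.21e-09). The summed fibroblast markers, Col1a1 and Col1a2, were 0.0247, 0.809 and 0.188 FPKM in 96 h M1 and 3.57, 8.92 and 11.2 FPKM in 96 h M2, against 18.2, 18.3, 128 and 70.1 FPKM in 96 h M0. They were highest in the M0 libraries with the most Timp1, Csf1 and Arg1, and their part in those values was not tested. Fewer cells of a type and less RNA per cell cannot be told apart in these bulk libraries.

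Antigen presentation held Cd74, the invariant chain of MHC class II, H2-DMa, which helps to load peptides on class II, and Psmb10, a subunit of the immunoproteasome. Cd74 had 1058, 1321 and 566 FPKM in 96 h M1 and 6251, 1840.2 and 1144 FPKM in 96 h M2, against 131, 126, 60.9 and 45.5 FPKM in 96 h M0. Both arms lay above M0 in each library. The log2 difference of Cd74 was 3.47 ± 0.34, limma adjusted p = 1.22e-15 in M1 and 4.83 ± 0.34, limma adjusted p = 3.21e-23 in M2. The M0 level itself moved, with a mean of 160.2 FPKM at 0 h, 93.2 FPKM at 24 h and 21.8 FPKM at 48 h. Cd74 was slow in M2, where it averaged 193 FPKM at 12 h and 653 FPKM at 48 h. In M1 it averaged 659.7 FPKM at 12 h.

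All 7 measured genes of MHC class II presentation, of which 2 were members, were higher in each of the 4 kept comparisons. Their median log2 difference was 2.77 in 96 h M1 and 3.82 in 96 h M2. Dendritic cells and B cells also express class II, and 1 of 7 listed marker genes of each was measured. The dendritic cell gene had 0.210 to 0.434 FPKM in 96 h M1, 0.0987 to 0.152 FPKM in 96 h M2 and 0.190 to 0.231 FPKM in 96 h M0. Earlier it moved, with 7.93 to 9.66 FPKM in 12 h M1 and 0.1165 to 0.168 FPKM in 12 h M2, against 1.17 to 1.68 FPKM in 0 h M0. The part of this gene's cells in the class II levels was not tested. The B cell gene had 0.0625 to 0.702 FPKM in 96 h M1, 12.2 to 17.1 FPKM in 96 h M2 and 56.0 to 79.9 FPKM in 96 h M0, lower in both arms. Of 20 class I genes, 19 were higher in 96 h M1 (30% of all genes), and 5 were higher and 2 lower in 96 h M2 (20.4% and 14.9% of all genes). Psmb10 had 136, 237 and 167 FPKM in 96 h M1 and 80.6, 83.9 and 76.2 FPKM in 96 h M2, against 35.2, 36.01, 35.9 and 34.3 FPKM in 96 h M0. Psmb10 was higher in M1 (log2 difference 2.277 ± 0.24, limma adjusted p = 1.1e-14) and in M2 (1.16 ± 0.24, limma adjusted p = 3.23e-05).

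Cd40, the receptor for the CD40 ligand of T cells, had 38.6, 52.1 and 29.4 FPKM in 96 h M1 and 7.22, 3.22 and 4.31 FPKM in 96 h M2, against 1.21, 1.41, 3.95 and 1.85 FPKM in 96 h M0. Cd40 was higher in M1 (log2 difference 3.76 ± 0.53, limma adjusted p = 2.29e-09), while in M2 it overlapped M0 and did not pass the test (0.95 ± 0.53). Serpina3g, a serine protease inhibitor, was the most M1-biased member at 96 h, with 87.0, 184 and 126 FPKM in M1 against 1.68, 0.350 and 0.709 FPKM in M2 (log2 difference 6.12 ± 0.44, limma adjusted p = 7.87e-24). In 96 h M2 it overlapped the 0.327 to 4.67 FPKM of Serpina3g in 96 h M0. Serpina3g belongs to a family of closely related genes, so its FPKM is uncertain.

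Tgm2, transglutaminase 2, which crosslinks proteins and is a known IL-4 response gene, had 200.2, 225 and 179 FPKM in 96 h M1 and 101, 64.3 and 72.5 FPKM in 96 h M2, against 22.4, 19.8, 16.2 and 15.1 FPKM in 96 h M0. Its log2 difference was 3.39 ± 0.24, limma adjusted p = 2.19e-24 in M1 and 2.04 ± 0.24, limma adjusted p = 3.77e-12 in M2. Gm20412 lies within Tgm2 on the opposite strand, and the library kit does not mark strand, so the reads of Gm20412 and Tgm2 cannot be told apart. Gm5345, annotated as a processed pseudogene, lies 7368 bp from Slc7a2, and G530011O06Rik lies 129 bp from Gm15726 on the X chromosome. F10, coagulation factor X, had 21.7, 5.95 and 4.56 FPKM in 96 h M1 and 124, 80.6 and 58.5 FPKM in 96 h M2, against 10.3, 10.7, 10.3 and 6.52 FPKM in 96 h M0. The rise of F10 was called in M2 (log2 difference 3.04 ± 0.46, limma adjusted p = 3.19e-08) and not in M1 (-0.11 ± 0.46).

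The list of known IL-4 response genes held 7 members among 28 measured genes, of which 27 were higher in 96 h M2 (20.4% of all genes), and 6 were higher and 10 lower in 96 h M1 (30% and 22.3% of all genes). The list of known interferon and LPS response genes held 1 member, Cd40, among 34, of which 30 were higher in 96 h M1 (30% of all genes), and 1 was higher and 8 lower in 96 h M2 (20.4% and 14.9% of all genes). Lipid mediator members were Pla2g4a, the phospholipase that frees arachidonic acid, Ptgir, the prostacyclin receptor, and Ch25h, which makes 25-hydroxycholesterol. Pla2g4a had 44.0, 59.0 and 56.4 FPKM in 96 h M1 and 8.25, 11.6 and 14.2 FPKM in 96 h M2, against 4.48, 4.59, 5.54 and 5.78 FPKM in 96 h M0. It was higher in M1 (log2 difference 3.15 ± 0.17, limma adjusted p = 1.44e-32) and in M2 (1.00 ± 0.17, limma adjusted p = 5.71e-07). Ptgir was higher in both as well (1.21 ± 0.41 in M1 and 2.22 ± 0.41 in M2, with the M1 call lost without replicate 2, at 1.18). Ch25h was called higher in both, but its groups overlapped in M1, with 0.190, 2.93 and 2.72 FPKM in M1 and 1.12, 5.30 and 6.28 FPKM in M2, against 0.0702, 0.0845, 1.08 and 0.361 FPKM in M0.

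Rnf19b, Ripk2 and Rgl1 were higher than 96 h M0 in both arms. Rnf19b, a RING-finger ubiquitin ligase, had 239, 292 and 215 FPKM in 96 h M1 and 162, 200.1 and 182 FPKM in 96 h M2, against 41.7, 42.6, 35.1 and 34.6 FPKM in 96 h M0. The M1 minus M2 difference of Rnf19b at 96 h was 0.45 ± 0.25 on the log2 scale (limma adjusted p = 0.124). Ripk2, the kinase that relays NOD receptor signals, was higher by 1.71 ± 0.29 in 96 h M1 and 1.51 ± 0.29 in 96 h M2. Rgl1, a RAL activator, was higher by 1.87 ± 0.27 in 96 h M1 and by 1.88 ± 0.27 in 96 h M2. Upp1, uridine phosphorylase, was M1-biased, with 45.4, 70.0 and 52.0 FPKM in 96 h M1 and 1.24, 3.07 and 1.91 FPKM in 96 h M2, against 0.133, 0.397, 1.47 and 0.448 FPKM in 96 h M0. AA467197 had 212, 143 and 135 FPKM in 96 h M1 and 85.2, 38.4 and 33.7 FPKM in 96 h M2, against 1.48, 1.899, 3.18 and 3.41 FPKM in 96 h M0, the largest M1 difference of any member at 96 h (5.57 ± 0.38, limma adjusted p = 5.08e-25).

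Surface and vesicle proteins included Tarm1, an activating receptor of myeloid cells, Flrt2, a transmembrane protein, the tetraspanin Cd151, the proteoglycan Srgn and Cst7, cystatin F. Flrt2 had 59.9, 45.3 and 47.7 FPKM in 96 h M1 and 113, 103 and 94.7 FPKM in 96 h M2, against 16.8, 16.6, 14.5 and 12.5 FPKM in 96 h M0, with no overlap. Tarm1 had 22.3, 16.3 and 9.87 FPKM in 96 h M1 and 6.92, 1.81 and 1.84 FPKM in 96 h M2, against 0.207, 0.109, 0.305 and 0.204 FPKM in 96 h M0. Srgn was higher in 96 h M2 (log2 difference 2.62 ± 0.18, limma adjusted p = 7.44e-25) and not called in 96 h M1 (0.11 ± 0.18). Cst7 had 23.1, 42.1 and 44.1 FPKM in 48 h M1 and 2.38, 3.51 and 3.67 FPKM in 96 h M1, and 10.4, 11.5 and 10.7 FPKM in 48 h M2 and 15.7, 8.93 and 9.84 FPKM in 96 h M2. At 96 h both arms lay above the 0.370 to 1.12 FPKM of Cst7 in M0. Cd151 was lower in 96 h M1, at 33.1, 34.6 and 37.0 FPKM against 39.1, 38.9, 51.2 and 49.7 FPKM in 96 h M0 (log2 difference -0.34 ± 0.13, limma adjusted p = 0.0268), a call lost without replicate 2 (-0.40) and without replicate 3 (-0.31).

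On the log2 scale, levels rose fast from those of 0 h M0 in both arms. There was no bulk M0 library between 0 h and 24 h. At the hours between, a change with handling or time in culture thus cannot be told apart from one with the cytokines. The hour by which a member had passed 50% of its 24 h log2 rise was 1 h for 12 members and 2 h for 29 in M1. In M2 it was 1 h for 15 and 2 h for 35. For strongly raised members, 50% of a log2 rise is a small part of the rise in FPKM. Since the rule used the 24 h and 0 h levels, these counts are a description. At 1 h the median log2 difference of the members from 0 h M0 was 0.797, 0.195 and 0.159 in M1 replicates 1, 2 and 3. In the M2 replicates it was 0.638, 0.146 and 0.247, so replicate 1 was the highest in both arms. The hour of passing 50% was the same in both arms for 36 members, earlier in M1 for 13 and earlier in M2 for 18. Socs1, Ccl2, Ccl7, Ccl12, Nfil3, Etv3, Atf3, Sdc4 and Ralgds had passed 50% at 1 h in both arms. In single-cell 6 h M0 these had, in that order, 1.99, 627, 201, 10.8, 4.48, 20.1, 102, 106 and 6.97 CPM (counts scaled to the library total). In single-cell 24 h M0 they had 1.57, 76.0, 18.9, 2.27, 3.67, 20.1, 85.6, 116 and 13.3 CPM. With 1 library per time, this M0 difference was not tested. From 1 h to 4 h, 50 members rose and 3 fell in M1 (median 1.95; 33.2% of all genes rose and 27% fell), and those that fell were Nfil3, Galnt6 and Btbd19. In M2, 46 rose over the same hours (median 1.14; 21.3% of all genes rose). Summed neutrophil markers moved over these hours, with 1528 to 4531 FPKM in 1 h M1, 795 to 1576 FPKM in 4 h M1 and 238 to 277 FPKM in 12 h M1. In M2 they were 1025 to 4000 FPKM at 1 h, 374 to 906 FPKM at 4 h and 50.7 to 417 FPKM at 12 h, and 1040 to 2909 FPKM in 0 h M0. Their part in the timing was not tested.

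The share of members that rose after 4 h was near that of all genes in both arms, and the difference between the arms was not tested. From 4 h to 12 h, 24 members rose and 12 fell in M1 (median 0.18; 29.6% of all genes rose and 29.3% fell). In M2, 4 rose and 14 fell (median -0.29; 6.37% of all genes rose and 9.76% fell). Those that fell in M2 included Socs1, Ccl7, Ccl2, Rnf19b, Ripk2 and Jak2. The risers in M2 were Cst7, Aldh1b1, Ccl22 and Pgap2, a count that was 10 without replicate 1, 1 without replicate 2 and 2 without replicate 3. Over all sampled times, the highest M1 mean was at 2 h in 6 members, 4 h in 11, 6 h in 23, 12 h in 14, 24 h in 9, 48 h in 2 and 96 h in 2. The highest M2 mean was at 1 h in 2, 2 h in 11, 4 h in 13, 6 h in 13, 12 h in 2, 24 h in 2, 48 h in 8 and 96 h in 16, among the last Slc7a2, Ccl24, Cd74, Flrt2, Srgn and F10.

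**Figure D3:**
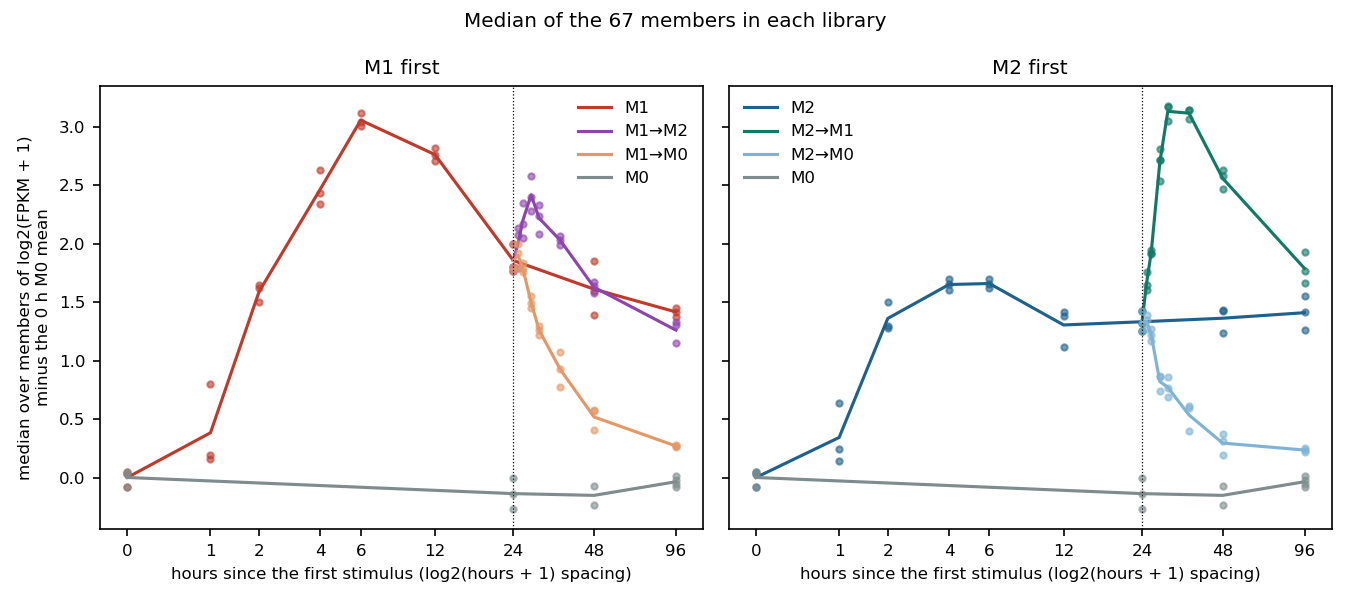
Median over the 67 members of log2(FPKM + 1) minus the 0 h M0 mean in each library (points) and the mean over libraries (lines), by hours since the first stimulus (log2(hours + 1) spacing), for cells given M1 (left) or M2 (right) cytokines first. The M1 line is highest at 6 h (3.06), the M2 line is 1.66 at 6 h and 1.41 at 96 h, and the washout lines end at 0.27 for M1 → M0 and 0.24 for M2 → M0.

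At 12 h, M1 was higher than M2 in 50 members and lower in 8 (median 1.20; 37.8% of all genes were higher and 32.3% lower). By 96 h M1 was higher in 20 and lower in 30 (median -0.59; 28% of all genes were higher and 26% lower). Those higher in M1 at 96 h included Socs1, AA467197, Upp1, Serpina3g, Cd40, Psmb10, Tgm2 and the chemokines Ccl2, Ccl7 and Ccl12. Those lower in M1 included Arg1, Slc7a2, Ccl22, Ccl24, Cd74, F10, Srgn, Nfil3, Atf3 and Etv3. At 12 h the differences farthest towards M1 were those of Upp1 (7.62 ± 0.38), Serpina3g (6.04 ± 0.44) and AA467197 (5.90 ± 0.41). Arg1 was farthest towards M2 (-4.44 ± 0.54).

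Washout lowered most members in both arms. In 48 h M1 → M0, 41 members were lower than in 48 h M1 (median -0.80; 13.4% of all genes were lower). In 48 h M2 → M0, 47 were lower than in 48 h M2 (median -1.14; 7.55% of all genes). No member was called higher at 48 h in either arm by limma, nor had any an unadjusted p below 0.05 in that direction (0 and 0 members). Of all genes, 10.4% were called higher in 48 h M1 → M0 and 5.84% in 48 h M2 → M0. By 96 h, 37 were lower in M1 → M0 than in M1 (median -1.11; 22.8% of all genes), and 54 in M2 → M0 than in M2 (median -1.13; 13% of all genes). Clic4, a chloride channel protein, was called higher, with 183, 165 and 158 FPKM in 96 h M1 → M0 against 116, 133 and 108 FPKM in 96 h M1 (log2 difference 0.50 ± 0.16, limma adjusted p = 0.00857), a call lost without replicate 3 (0.48). Of all genes, 19.4% were called higher in that comparison. Between 1 h and 6 h after washout, 30 members fell in M1 → M0 (15.9% of all genes fell) and 23 fell in M2 → M0 (5.97% of all genes), while 2, Gm15726 and Galnt6, rose in M1 → M0 and 2, Tgm2 and Gm20412, rose in M2 → M0 (12.4% and 5.91% of all genes). The first of these counts was 40 without replicate 1, 22 without replicate 2 and 18 without replicate 3, and the second was 36, 15 and 11.

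Members differed in how much was left. Of the log2 difference between kept cells and M0, a median of 43.4% was left in 48 h M1 → M0 (over the 50 members called higher in 48 h M1) and 29.5% in 48 h M2 → M0 (56 members). At 96 h the medians were 24.4% for M1 → M0 (45 members) and 13.98% for M2 → M0 (57 members). The members of each set were picked as high in the same kept libraries, and the sets differ, so these medians are a description. Socs1 was lost quickly, with 1.44, 3.23 and 2.98 FPKM in 48 h M1 → M0 and 0.695, 1.21 and 1.05 FPKM in 48 h M2 → M0. Its difference from kept cells was -5.05 ± 0.38, limma adjusted p = 1.22e-21 in the M1 arm and -4.11 ± 0.38, limma adjusted p = 5.04e-16 in the M2 arm. Arg1 kept 51.6% of its M2 log2 difference at 48 h and 23.7% at 96 h.

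At 72 h after washout, 96 h M0 libraries were the comparison for both arms. In 96 h M1 → M0, 14 members were higher than in 96 h M0 and 5 lower (10.7% of all genes were higher and 7.19% lower). In 96 h M2 → M0 Arg1 alone was higher and none lower (0.253% of all genes were higher and 0.12% lower), and at an unadjusted p below 0.05 0 were lower. At an unadjusted p below 0.05, limma gave 22 members higher in M1 → M0 and 12 in M2 → M0. The share of all genes at that threshold was not computed, so these unadjusted counts are no result about the members. The count of 14 in the M1 arm was 25 without replicate 1, 8 without replicate 2 and 6 without replicate 3. The count of 1 in the M2 arm was 10 without replicate 1 and 0 without replicate 2 or 3, and with the replicate number as a block it was 4. Whether these counts differ between the arms was not tested.

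AA467197 stood farthest above M0 after M1 washout, with 30.3, 38.9 and 43.7 FPKM in 96 h M1 → M0 against 1.48, 1.899, 3.18 and 3.41 FPKM in 96 h M0 (log2 difference 3.50 ± 0.38, limma adjusted p = 1.16e-12). In 96 h M2 → M0 it had 4.23, 2.16 and 2.18 FPKM. Ccl7 had 24.6, 94.0 and 101 FPKM in 96 h M1 → M0 and 6.10, 10.1 and 19.2 FPKM in 96 h M2 → M0, against 10.4, 11.9, 10.8 and 12.6 FPKM in 96 h M0. It was higher after M1 washout (2.34 ± 0.48, limma adjusted p = 0.000107), a call lost without replicate 3 (1.97). Tgm2 had 66.2, 48.4 and 52.4 FPKM in 96 h M1 → M0, and its reads again include those of Gm20412 (1.55 ± 0.24, limma adjusted p = 1.44e-07 against 96 h M0). Pla2g4a had 16.2, 15.9 and 18.8 FPKM in 96 h M1 → M0, above every 96 h M0 library (1.56 ± 0.17, limma adjusted p = 7.28e-13).

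Cst7 was not called between washed and kept cells of the M1 arm at 96 h. It had 2.63, 5.01 and 6.44 FPKM in 96 h M1 → M0, against 2.38, 3.51 and 3.67 FPKM in 96 h M1 (0.39 ± 0.23, not called), and was above 96 h M0 (1.71 ± 0.22, limma adjusted p = 4.01e-10). Also higher than M0 after M1 washout were Ccl2 (1.56 ± 0.33), Cd40 (1.66 ± 0.53), Ccl12 (2.15 ± 0.68) and Tarm1 (1.11 ± 0.39). The Ccl2 call was lost without replicate 3 (1.28), and those of Cd40, Ccl12 and Tarm1 without replicate 2 (1.69, 1.66 and 1.21) and without replicate 3 (1.92, 1.85 and 1.23). Lower than M0 were Timp1 (-2.88 ± 0.54), F10 (-1.62 ± 0.46), Csf1 (-1.57 ± 0.36), Cd74 (-1.29 ± 0.34) and Cd151 (-0.47 ± 0.13). Beside Timp1 and Csf1, the summed fibroblast markers were 0.296, 0.940 and 0.941 FPKM in 96 h M1 → M0.

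Cd74 fell below M0 after M1 washout, with 33.0, 37.3 and 29.6 FPKM in 96 h M1 → M0 against 131, 126, 60.9 and 45.5 FPKM in 96 h M0 (limma adjusted p = 0.00365, lost without replicate 2 at -1.17). Of the 7 measured MHC class II genes, 4 were lower than in 96 h M0 after M1 washout (7.19% of all genes). Arg1, the member called after M2 washout, had 3.99, 25.7 and 20.8 FPKM in 96 h M2 → M0 against 0.758, 0.591, 7.16 and 3.33 FPKM in 96 h M0 (2.18 ± 0.50, limma adjusted p = 0.0157). The groups overlapped, and the call was lost without replicate 2 (1.40), without replicate 3 (2.33) and at log2(FPKM + 10) (0.97). The summed fibroblast markers were 17.8, 122 and 47.4 FPKM in those 96 h M2 → M0 libraries, against 18.2, 18.3, 128 and 70.1 FPKM in 96 h M0, and their part was not tested.

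**Figure D4:**
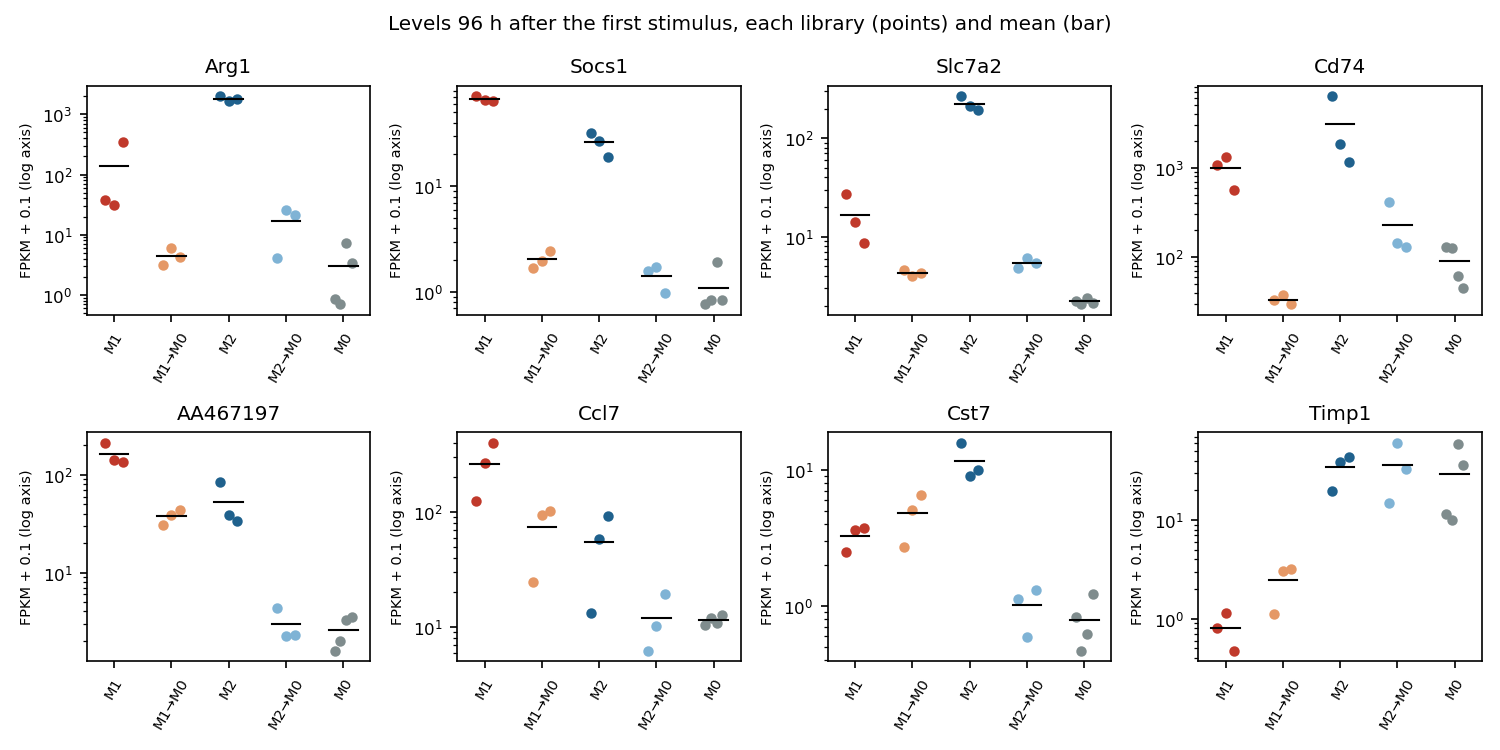
FPKM + 0.1 (log axis) of 8 members in each 96 h library (points) with the mean (bar), in M1, M1 → M0, M2, M2 → M0 and M0 cells. AA467197, Ccl7 and Cst7 lie above M0 in M1 → M0 cells, and Cd74 and Timp1 lie below M0 there.

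Cells given the opposite cytokines after 24 h were compared with those returned to base medium. In 96 h M1 → M2, 46 members were higher than in 96 h M1 → M0 (median 1.17; 8.46% of all genes were higher and 8.45% lower), and 0 were called lower by limma (0 at an unadjusted p below 0.05). In 96 h M2 → M1, 49 were higher and 2 lower than in 96 h M2 → M0 (median 1.43; 25.8% of all genes were higher and 20.7% lower). IL-4 after M1 gave 687, 1867 and 1772 FPKM of Arg1, against 3.00, 5.84 and 4.17 FPKM in 96 h M1 → M0 (log2 difference 7.98 ± 0.54, limma adjusted p = 3.44e-24). Slc7a2 (4.55 ± 0.36) and Socs1 (3.80 ± 0.38) rose as well. Ccl24 (0.24 ± 0.46), Ccl22 (0.37 ± 0.55), H2-DMa (0.01 ± 0.29) and AA467197 (-0.01 ± 0.41) did not pass the test there, and the difference from cells given IL-4 alone was not tested. LPS with IFN-γ after M2 gave 414, 161 and 291 FPKM of AA467197, against 4.23, 2.16 and 2.18 FPKM in 96 h M2 → M0 (6.17 ± 0.41, limma adjusted p = 4.22e-26). Serpina3g (6.16 ± 0.44) and Ccl7 (5.35 ± 0.52) rose too, and Galnt6 (-0.52 ± 0.20) and Cd151 (-0.62 ± 0.14) fell.

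Chromatin accessibility was measured by ATAC-seq in 24 h M1, 96 h M1 → M0 and 0 h M0 cells, 3 libraries each, with 1730488 to 9354620 counts per library and the fewest in 24 h M1 replicate 3. There was no M2 library. All M0 libraries were from 0 h, so in comparisons with them treatment or washout cannot be told apart from time in culture. Within 500 bp of a transcription start, 61 members had 72 sites. In 24 h M1, 16 of these were higher and 2, at Cst7 and Pgap2, lower than in 0 h M0 (9.21% of all promoter sites were higher and 18.7% lower), by edgeR's quasi-likelihood test with adjusted p below 0.05 over 137586 sites. In 96 h M1 → M0, 25 were lower and 2, at Gnb4 and 6330416G13Rik, higher than in 24 h M1 (15% of all promoter sites were lower and 11.9% higher). Without replicate 1 the 25 became 14 and without replicate 3 they became 16. Of the 16 sites higher in M1, 12 were lower after washout, and 3 were still higher than in 0 h M0, at Arg1, Ccl12 and Upp1. Over all promoter sites, 1723 were higher in M1, of which 919 were lower after washout and 460 were still higher. These sites were picked as high in the same 24 h M1 libraries, so the counts are a description.

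The site over the Socs1 promoter (chr16:10784923-10786632) had 98.0, 87.4 and 105 CPM (counts scaled to the library total, here with TMM factors) in 24 h M1, against 54.8, 64.4 and 59.8 in 0 h M0 (log2 difference 0.69, edgeR adjusted p = 7.31e-06). After washout it had 47.3, 51.9 and 51.5, below each 24 h M1 library (-0.93, edgeR adjusted p = 1.2e-08). The Psmb10 site (chr8:105936884-105938609) had 44.3, 41.6 and 39.4 CPM in 24 h M1 against 20.9, 18.8 and 19.0 in 0 h M0 (1.09, edgeR adjusted p = 2.27e-10), and 25.8, 20.4 and 21.9 after washout (-0.88 against M1). The Serpina3g site (chr12:104235942-104236341) had 4.71, 8.09 and 5.21 CPM in 24 h M1 against 2.05, 1.45 and 2.68 in 0 h M0 (1.60, edgeR adjusted p = 0.000222), from 9 to 62 counts in the 24 h M1 libraries. Its rise was not called without replicate 2 (1.11), and after washout it was lower than in M1 (-2.02).

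The Tarm1 site (chr7:3502442-3503017) had 20.7, 15 and 20.3 CPM in 24 h M1 against 7.70, 6.20 and 5.49 in 0 h M0 (1.43, edgeR adjusted p = 5e-09) and 6.51, 5.94 and 5.56 after washout. The Cd74 site (chr18:60803552-60804039) had 13.8, 16.6 and 11.0 CPM in 24 h M1 against 8.52, 8.67 and 9.37 in 0 h M0 (0.73, edgeR adjusted p = 0.00215). The Cd74 site had, in 96 h M1 → M0, 3.38, 1.84 and 3.02, below 0 h M0 (-1.67, edgeR adjusted p = 6.58e-08). Cd74 RNA in 96 h M1 → M0 was below 96 h M0, a reference of another time, and the M0 level of Cd74 RNA itself moved with time. The rise of the Cd74 site in M1 was not called without replicate 2 (0.56) or with DESeq2 (0.64).

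Of the member sites in 96 h M1 → M0, 6 were higher and 15 lower than in 0 h M0 (5.63% of all promoter sites were higher and 16.1% lower). The count of 6 was 1 with DESeq2, 0 without replicate 1 and 3 without replicate 3. The Arg1 site (chr10:24927452-24928540) had 24.2, 21.9 and 20.3 CPM in 24 h M1 and 20.8, 17.0 and 15.7 in 96 h M1 → M0, against 13.3, 12.2 and 12.2 in 0 h M0. It was above 0 h M0 after washout (0.50, edgeR adjusted p = 0.00629), a call lost without replicate 1 (0.40) and with DESeq2 (0.48). The Cst7 site was lower in 24 h M1 than in 0 h M0, at 6.10 ± 1.18 against 11.1 ± 0.894 CPM (SD, 3 libraries each, -0.74, edgeR adjusted p = 0.0049). Cst7 RNA was higher in 48 h M1 than in 48 h M0 (log2 difference 4.18 ± 0.26, standard error).

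**Figure D5:**
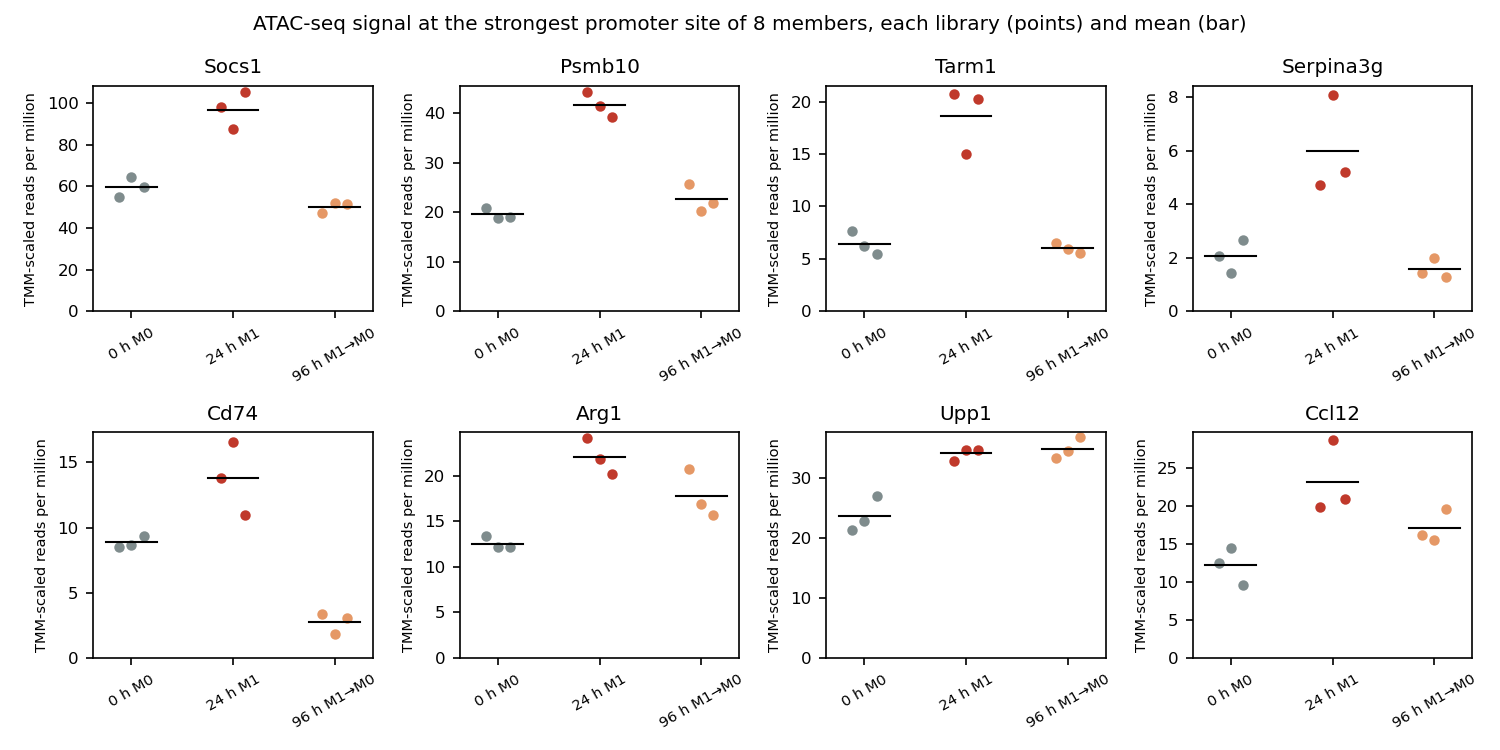
TMM-scaled CPM at the strongest promoter site of 8 members in each library (points) with the mean (bar), in 0 h M0, 24 h M1 and 96 h M1 → M0 cells, on axes from 0. In each panel the 24 h M1 mean lies above the 0 h M0 mean, and in the Cd74 panel the M1 → M0 points lie below all others.

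Single-cell RNA-seq, with 1 library per condition, measured the same genes as UMI sums over all barcodes, with no test. Libraries held 2446 to 5985 barcodes and 5725353 to 8761151 UMIs, with a median of 1025 to 2529 UMIs per barcode, and pairs of libraries shared 6 to 25 barcodes. Of the 67 members, 61 were in the table and 60 were above 3 UMIs. Against 24 h M0, the ratio of CPM was at least 1.5 in 57 members in 24 h M1 (19.2% of genes) and in 59 in 24 h M2 (16.5% of genes), with median ratios of 7.44 and 4.03. At 6 h, a time the rule did not use, it was at least 1.5 in 50 members in M1 (19.0% of genes) and in 58 in M2 (9.76% of genes), against 6 h M0.

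Arg1 had 4.11 (2.88 to 5.69) CPM in 6 h M1 and 2724 (2689 to 2759.7) in 6 h M2, against 6.31 (4.46 to 8.66) in 6 h M0 (95% exact Poisson intervals in brackets, here and below, cover counting error only). At 24 h Arg1 had 343 (329.6 to 357) in M1 and 3299 (3259 to 3340.0) in M2, against 3.49 (2.13 to 5.40) in M0, and its M1 level was higher at 24 h than at 6 h. These sums do not give the share of cells with the RNA. Arg1 UMIs were found in 21.1% of 24 h M1 barcodes and in 92.8% of 24 h M2 barcodes. Ccl24 UMIs were found in 5.26% of 6 h M1 barcodes. Socs1 had 593 (577 to 609.7) in 6 h M1 and 158 (149.5 to 167) in 6 h M2, against 1.99 (1.03 to 3.48) in 6 h M0.

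Slc7a2 had 306 (295 to 318) CPM in 6 h M1 and 191 (182 to 201) in 6 h M2, and 16.7 (13.9 to 20.0) in 24 h M1 and 113 (105 to 120.5) in 24 h M2, higher in M1 at the earlier time and in M2 at the later. AA467197 had 2386 (2354 to 2419) in 6 h M1 and 85.6 (79.5 to 92.1) in 6 h M2, against 10.1 (7.75 to 13.01) in 6 h M0. The ratio of 6 h M1 to 6 h M0 was lowest for Btbd19 (0.172), Galnt6 (0.295), Cd151 (0.400), Arg1 (0.651) and Flrt2 (0.664). Each of these reached 50% of its bulk M1 log2 rise at 12 h or 24 h.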

How the data were processed

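Bulk RNA-seq, ATAC-seq and single-cell RNA-seq were measured in BMDMs. The bulk reads were aligned by the authors to mm10 with TopHat 2.0.14, and they quantified them with Cuffnorm 2.2.2 and deposited log10(FPKM + 1) values of genes with at least 10 FPKM in 1 library. No counts were given, so the depth is unknown, and FPKM summed to 354027 to 710082 per library. For ATAC-seq the authors deposited read counts in sites called by MACS2 2.1.0 on merged libraries, after duplicate removal with SAMtools 1.9. The deposited single-cell matrices hold UMI counts from Cell Ranger, whose version was not given in the sources used here. No cell filter, clustering or doublet removal was applied, and free RNA was not corrected.

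Deposited log10 values were converted to log2(FPKM + 1) and fitted with limma 3.58.1 (trended variance, 1 mean per condition, 145 libraries), since Cuffdiff, the study's test, needs reads. ATAC counts were tested with edgeR 4.0.16 (TMM, sites over 10 counts). R 4.3.3, DESeq2 1.42.0, Python 3.11.15, pandas 2.3.3 and matplotlib 3.10.9 were used. Transcription starts were those of GENCODE vM21. Single-cell counts were scaled to CPM, with a floor of 3 counts. Both models were tested on simulated data, in which limma recovered 90% of genes changed by a log2 of 1 for 96 h M1 against 96 h M0 (8307 genes), and edgeR recovered 13% of sites changed 2-fold for 24 h M1 against 0 h M0 (127523 sites).

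The members and the gene lists were chosen with earlier results of these data known. Named genes were those with the largest smallest change over the 4 kept comparisons, the largest changes of each function list, arm comparison, washout and ATAC comparison, those changed in the opposite direction, those with the highest level and those next to the threshold. The other genes were named after their values were seen. Samples with the same replicate number deviated together in 14 of 20 bulk comparisons (smallest correlation of each 0.166 to 0.598), so a replicate block was tried, with other pseudocounts, filters, scalings, windows and replicates left out.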

Additional observations from a re-analysis of the deposited data

Results flagged for a closer look

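The washout effect, M → M0 minus kept cells, differed between the M1 and M2 arms in 24 members at 48 h by an interaction test in limma (14 more positive and 10 more negative in M1, against 18.8% of all genes). The differences in log2 effect were -4.37 for Serpina3g, -3.75 for Upp1, 5.29 for Ccl24 and 4.03 for Ccl22. At 96 h 25 members differed (20 more positive and 5 more negative, against 34.9% of all genes, a share near that of the members, so that the count is no result about them), with -7.52 for Serpina3g, 7.16 for Ccl24, 3.53 for Slc7a2 and 3.14 for Arg1. The effect of kept M1 cytokines over M0 was lower at 96 h than at 48 h in 11 members (0 were called higher by limma, and 7.99% of all genes differed), with -2.86 for Cst7, -2.49 for Timp1, -2.28 for Csf1 and -2.08 for Cd74. For Cd74 and Csf1 the M0 levels given above were higher at 96 h than at 48 h. Their differences thus include a change of the M0 reference and do not measure a fall in kept M1 cells.

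Within the 4 libraries of 96 h M0, 1 library lay far from the others by Dixon's test in 7 of 67 members. Chance gives about 1 in 20 for independent genes, but these genes share the 4 libraries. The share over all genes was not computed, so the count is no result about the members. Replicate 3 was high for Socs1 (1.82 FPKM, others 0.662 to 0.741), Nfil3 (5.27 FPKM, others 3.15 to 3.44) and Ripk2 (5.92 FPKM, others 5.11 to 5.15), and low for mmu-mir-8112 (12.1 FPKM, others 37.3 to 42.4). Replicate 4 was high for Srgn (89.6 FPKM, others 77.6 to 79.5) and low for F10 (6.52 FPKM, others 10.3 to 10.7), and replicate 2 was low for G530011O06Rik (1.09 FPKM, others 1.73 to 1.88).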

How the results depend on the processing

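Of 195 alternative values of 28 summary results, 172 were within 1.5 times the reported value. Leaving out a replicate changed the members that rose in M2 between 4 h and 12 h from 4 to between 1 and 10, those above 96 h M0 in 96 h M1 → M0 from 14 to between 6 and 25, and those in 96 h M2 → M0 from 1 to between 0 and 10. Members that fell between 1 h and 6 h after washout numbered 18 to 40 in M1 → M0 and 11 to 36 in M2 → M0. Members higher in 48 h M2 than in 48 h M0 numbered 38 to 59. Those lower in M2 → M0 than in M2 numbered 33 to 53 at 48 h and 37 to 58 at 96 h. Those higher in 96 h M1 → M2 than in 96 h M1 → M0 numbered 32 to 50. ATAC sites lower after washout numbered 14 to 26, and those still above 0 h M0 0 to 6. With only the groups compared in the fit, 22 members were above M0 in 96 h M1 → M0 and 3 in 96 h M2 → M0, where log2(FPKM + 10) gave 0. With DESeq2, 1 ATAC site was still above 0 h M0. The selection with log10(FPKM + 10) gave 27 members. The cause of these changes was not tested. Without replicate 2 the Galnt6 site (15, 100728217 to 100729626) had a log2 difference of 0.0391 in M1 → M0 against M1, of the opposite sign, and leaving out each replicate gave -0.614 to 0.0391. Of 7004 alternative values of 892 single results, 612 lost the call.

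With the replicate number as a block, 4 members were above M0 in 96 h M2 → M0, against 1 without it, and no bulk call was lost. Calls were gained in other comparisons too. Among them, Ccl7 was lower in M1 than in M2 at 12 h. Slc7a2, Ccl8, Psmb10 and G530011O06Rik were above M0 in 96 h M1 → M0. Some members reported above as not called thus depend on the fit without a block. The numbers did not pair the samples in either comparison of 96 h washed cells with M0, nor in ATAC-seq. Centring on the library median changed the median of all genes in 48 h M1 against 48 h M0 to -0.04, against 0.11. ATAC replicate 3 of 24 h M1 had 1730488 counts, which limits small changes, and in simulated data a 2-fold change was recovered at 13% of sites in that comparison.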
